A study of Mus musculus with 6 samples.

Results

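The late-numbered miRNAs of the intestine were those entries of the mouse miRNA table whose number is 1800 or higher, whatever their letter, locus number or arm, leaving out miR-3070, miR-3071, miR-3072 and miR-3544, which belong to the imprinted domain of chromosome 12. Of 604 miRNAs listed in the intestine, 95 were members (15.7%). Numbers were given to miRNAs roughly in the order of their discovery, and the rule uses the number and the locus alone, though it was set with earlier results of these data known.

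A miRNA is cut from one arm of an RNA hairpin, loaded into an Argonaute protein and guided by its seed, bases 2 to 8, to messenger RNAs that it represses. In the usual pathway Drosha cuts the hairpin out of a primary transcript and Dicer removes the loop. Many late-numbered entries come from other kinds of transcript: introns that are spliced out and fold into a hairpin without Drosha (mirtrons), small nucleolar RNAs (snoRNAs) and Cajal body RNAs (scaRNAs), which guide the modification of other RNAs, tRNAs, or the strand opposite to a miRNA gene. Most were found by deep sequencing, and many are scarce.

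Small RNA was measured in intestinal tissue of wild-type C57BL/6J pups, with 3 Control and 3 NEC libraries. Pups of the NEC group, a model of necrotizing enterocolitis, were gavaged with formula every 4 h for 96 h and exposed every 12 h to hypoxia for 100 s followed by cold at 4 °C for 10 min. Pups of the Control group stayed with their dams, without hypoxia or cold. The model combines diet and both stresses, so that their effects cannot be told apart, and neither the labels nor the methods state whether pups were pooled or sampled more than once, so that p-values measure the spread between libraries only, which may be technical. The tissue was whole, and fewer cells of a type and less RNA per cell cannot be told apart.

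The library codes in the labels fall into 2 series. Code series 1 holds Control replicates 1 and 2 and NEC replicates 2 and 3, and code series 2 holds Control replicate 3 and NEC replicate 1. What the codes stand for is not stated. Values are on the log2 scale the authors deposited, and since no counts are given, the depth of the libraries is unknown and limits the precision to an unknown extent. How the values were transformed is not stated, so that differences, SDs and back-transformed values, above all those of scarce members, need not equal those of counts. Across the 95 members, Spearman's correlation was 0.935 to 0.970 for pairs of libraries within a code series and 0.908 to 0.958 for pairs across the series, a description over miRNAs that share their libraries. Epithelial marker miRNAs (8 of 8 measured) summed to log2 18.3 to 19.2 in Control and 18.3 to 19.0 in NEC, so that the markers of intestinal epithelium were abundant in every library. Leukocyte markers (3 of the 5 listed were measured) summed to 7.57 to 8.49 in Control and 6.95 to 7.53 in NEC. Neuronal markers (3 of 3) summed to 8.43 to 8.74 in Control and 8.83 to 9.32 in NEC. The groups did not overlap in either sum, though those of leukocytes came close (7.57 against 7.53). No measured marker of these lists was at 0. The groups did overlap for epithelium, smooth muscle and mesenchyme, red blood cells, liver, pancreas and striated muscle. Single neuronal markers ran from 1.18 to 9.31 over the libraries, so that the highest sum, 9.32, rested almost wholly on 1 marker. The part of these lists in the differences below was not tested.

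RefSeq (GRCm38) gives the mature sequence of 82 of the 95 members. The first set is shown because its members are among the most abundant ones, besides those of the other sets, with the seed in capitals.
miR-1981-5p: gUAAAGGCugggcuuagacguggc
miR-3074-5p: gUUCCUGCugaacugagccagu
miR-1839-5p: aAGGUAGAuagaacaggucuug
miR-3535: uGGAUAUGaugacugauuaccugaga

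The second set is shown because each pair is complementary over most of its length. Capitals mark the longest stretch that is the reverse complement of the partner.
miR-3074-2-3p: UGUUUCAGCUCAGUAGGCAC
miR-24-2-5p: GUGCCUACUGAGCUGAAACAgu
miR-3073b-5p: AUGGUCACAGUGGACAUCAAcc
miR-3073a-3p: UUGAUGUCCACUGUGACCAUag
miR-3065-5p: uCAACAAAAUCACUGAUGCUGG
miR-338-3p: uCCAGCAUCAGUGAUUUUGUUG

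The third set is shown because the mature RNA ends at the last base of an intron. Capitals mark its last 2 bases.
miR-7043-3p: acugugccucucuguuuucAG
miR-7091-3p: aguggcuucugucgucucuAG
miR-7015-3p: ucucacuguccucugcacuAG
miR-7226-3p: ugacacagccauucucugagcAG
miR-3082-3p: cacauggcacucaacucugcAG

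The fourth set is shown because the entries share sequence in the same sense, so that a read of the shared stretch alone can belong to either. Capitals mark the longest shared stretch.
miR-1843a-5p: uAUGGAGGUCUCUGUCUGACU
miR-1843b-5p: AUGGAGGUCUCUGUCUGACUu
miR-3962: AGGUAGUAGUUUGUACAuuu
let-7g-5p: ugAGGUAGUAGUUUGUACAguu

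The late-numbered miRNAs were scarce as a group but held a few abundant entries. The median of their means over the 6 libraries was log2 2.21, against 5.61 for the other 509 miRNAs. In each library the median member lay 3.00 to 3.61 below the median of the others (mean gap 3.33 ± 0.28, SD, n = 6, lower in 6 of 6 libraries). The same miRNAs enter every library of this tissue, so that the agreement of the libraries is a description and no test of the group. A log2 value of at least 3.32, which corresponds to 10 after back-transformation, was required in at least 3 libraries for testing. This left 33 members (34.7%), against 353 (69.4%) of the others, and 62 members were not tested. Of the members, 43 had a mean under 2 and 18 a mean under 1, while 9 reached 7 or more and only 3 were among the 100 most abundant miRNAs of the table. Mature members were 20 to 26 bases long, with the same median of 22 as the other miRNAs, and levels were compared without a length correction.

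After back-transformation, the members together made up 0.360%, 0.427% and 0.358% of the summed value in Control replicates 1 to 3 and 0.345%, 0.515% and 0.414% in NEC replicates 1 to 3. The groups overlapped. The NEC libraries averaged 0.425% ± 0.0857 and the Control libraries 0.382% ± 0.0391 (SD, n = 3 each), which differ by 0.0431 percentage points (p = 0.7 in an exact two-sided permutation test, for which the smallest possible p is 0.1). Without NEC replicate 2, which had the highest share, the difference was -0.0021 percentage points. The most abundant member alone carried 22.3% to 35.5% of the members' sum, and the 5 most abundant ones 72.5% to 76.8%.

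**Figure D1:**
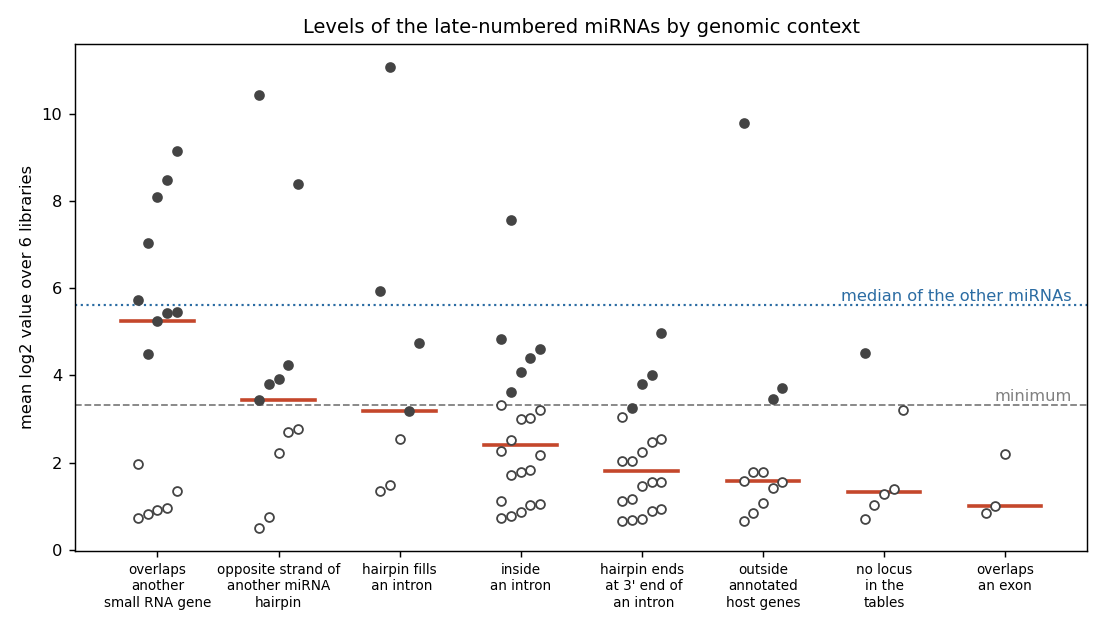
Mean log2 value over 6 libraries of each of the 95 late-numbered miRNAs (y axis), grouped by genomic context (x axis), with filled points for the 33 tested and open points for the 62 untested members, a red bar at each group's median, a dashed line at the minimum of 3.32 and a dotted line at the median of the other miRNAs (5.61). Members that overlap another small RNA gene have the highest median, 5.25, while the highest single member, miR-1981-5p (11.07), is among those that fill an intron. The median of members opposite another miRNA hairpin is 3.43, and the medians of the remaining groups lie under the minimum.

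By genomic context, a locus on GRCm38 was found for 89 members. The 15 members that overlap another small RNA gene had the highest median of means, 5.25, and 9 of them were tested. The 11 members whose hairpin lies opposite another miRNA hairpin had a median of 3.43, with 6 tested. The 7 members whose hairpin fills a whole intron had a median of 3.19, with 4 tested. The 22 members deeper inside an intron (2.40), the 20 whose hairpin ends at the 3′ end of an intron (1.80), the 11 outside annotated host genes (1.57), the 6 with no locus in the tables used (1.33) and the 3 that overlap an exon (1.01) were lower. By number, the median was 4.45 for the 20 members numbered from 1800 to below 2000, 2.62 for the 34 from 3000 to below 4000 and 1.56 for the 19 from 6900 to below 7100, a range given in large part to splicing-derived hairpins. The 9 members from 4000 to below 6000 had a median of 1.01, and none was numbered from 2000 to below 3000.

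Most of the abundant entries came from unusual loci, miR-5099 and miR-3081-3p excepted. The most abundant was miR-1981-5p, from a hairpin on chr1:184822407-184822488 (minus strand) that is exactly an intron of 82 nt of Marc2, the gene of a mitochondrial amidoxime-reducing enzyme. Its values were 11.30, 11.05 and 11.04 in Control and 10.68, 11.47 and 10.88 in NEC replicates 1 to 3. The NEC libraries reached both below and above all Control libraries. The mature RNA starts at the first base of the intron, with the GU of the 5′ splice site, and its other arm, miR-1981-3p, was lower by 4.66 to 5.43 in every library.

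Among members that overlap another small RNA gene, miR-1839-5p led. Its hairpin, on chr7:81529916-81529988 (plus strand), is typed as a scaRNA in GENCODE. Values were 9.49, 9.15 and 9.10 in Control and 9.07, 8.90 and 9.22 in NEC, so that the groups overlapped. The other arm, miR-1839-3p, had 5.06, 4.89 and 4.20 in Control and 3.42, 4.72 and 4.69 in NEC, and the arms differed by 4.18 to 5.65.

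The entry miR-3535 lies inside the snoRNA gene Gm24148 on chr1:86351981-86352127 (minus strand), within an intron of Ncl that some annotated transcripts keep as exon. Ncl encodes nucleolin, a protein of ribosome production. Its values were 8.75, 8.51 and 7.14 in Control and 7.58, 8.46 and 8.07 in NEC. The lowest value of each group was the library of code series 2.

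The hairpins of miR-1843a and miR-1843b lie within the scaRNA genes Scarna3b and Scarna3a. The former is in Dcaf5 on chr12:80391613-80391677 (minus strand) and the latter in Cop1, a ubiquitin ligase gene, on chr1:159340358-159340423 (plus strand). Values of miR-1843a-5p were 8.21, 8.27 and 8.81 in Control and 8.72, 8.38 and 8.45 in NEC, and those of miR-1843b-5p were 6.82, 6.81 and 7.23 in Control and 7.18, 7.08 and 7.08 in NEC. As their sequences share 20 of 21 bases, shifted by 1, reads can be split between them in an unknown way, and both values are uncertain. Their difference stayed between -1.58 and -1.30 over the 6 libraries.

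The 3p arms of these hairpins do not share that stretch, but they match each other over most of their length, with mismatches. Whether reads are split between them was not tested. The value of miR-1843b-3p was 5.25, 5.72 and 5.43 in Control and 5.43, 6.50 and 5.98 in NEC, and miR-1843a-3p was far lower, at 2.86, 2.94 and 1.51 in Control and 1.48, 1.42 and 1.58 in NEC.

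A further abundant member, miR-3081-3p, lies in an intron of Boc, which encodes a co-receptor of hedgehog signalling, on chr16:44558046-44558129 (minus strand). Its values were 7.41, 7.32 and 7.74 in Control and 8.05, 7.62 and 7.26 in NEC, and the groups overlapped.

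The third most abundant member was miR-5099, which the study lists among its DEmiRNAs. Its hairpin lies on chr12:36816205-36816278 (plus strand) outside annotated host genes. The values were 9.17, 9.10 and 9.69 in Control and 10.14, 10.22 and 10.41 in NEC. The NEC libraries were all higher, and the highest Control library was that of code series 2.

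**Figure D2:**
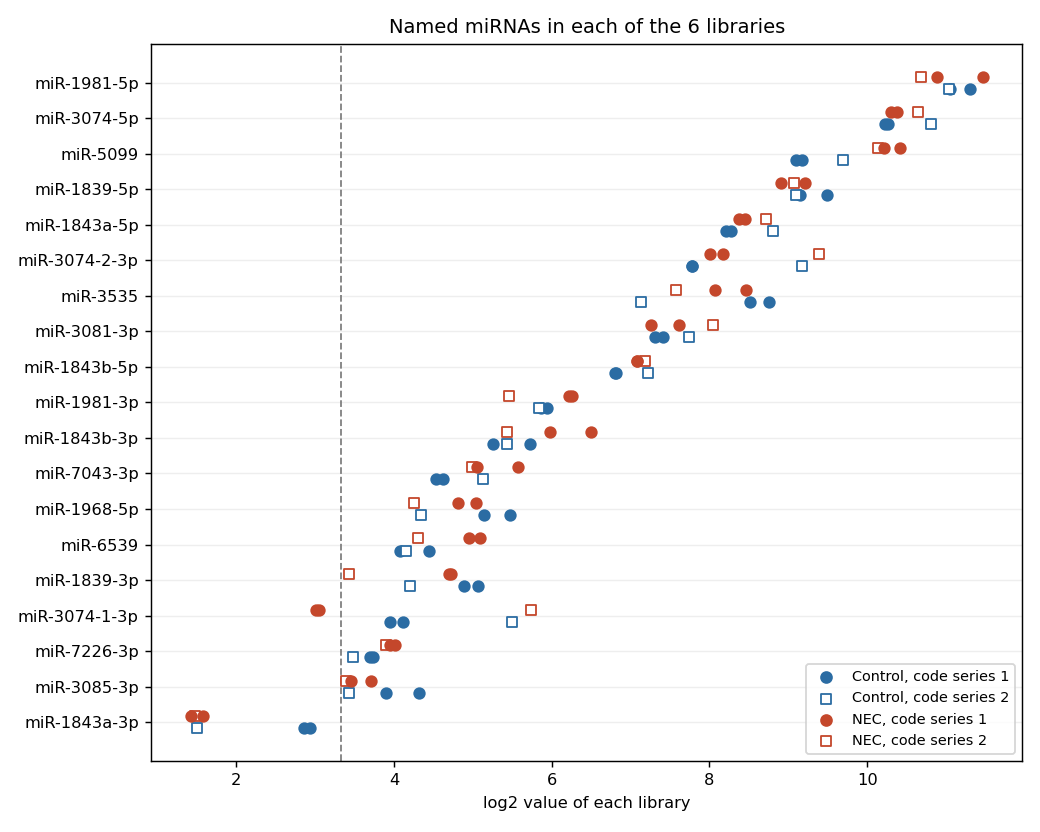
Log2 value (x axis) of 19 named late-numbered miRNAs (y axis) in each of the 6 libraries, blue for Control and red for NEC, with filled circles for code series 1 and open squares for code series 2, and a dashed line at the minimum of 3.32. The NEC points of miR-5099 lie at 10.14 to 10.41, right of all Control points, and the open squares of miR-3074-2-3p lie right of all filled circles.

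Entries on opposite strands of one locus mostly carried nearly the same values. The hairpins of miR-3074 lie opposite those of miR-24, Mir3074-1 on chr13:63301199-63301283 (minus strand) in an intron of Fancc, a Fanconi anaemia gene, and Mir3074-2 on chr8:84208825-84208907 (minus strand). In Control and NEC, miR-3074-2-3p had 7.78, 7.78 and 9.18 and 9.39, 8.17 and 8.01, and its reverse complement miR-24-2-5p had 7.88, 7.87 and 9.28 and 9.50, 8.26 and 8.09. The difference between both was -0.10 with an SD of 0.0074 over the 6 libraries, while each varied with an SD of 0.72.

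The entries of the other 5 pairs also followed each other, some less closely. Those of miR-5615, which are also the arms of its hairpins, differed by 0.17 to 0.45 at means of 0.76 and 0.51. The SD of the difference over 6 libraries was 0.0131 for miR-3073a-3p and miR-3073b-5p, 0.0342 for miR-3065-5p and miR-338-3p, 0.0352 for miR-3065-3p and miR-338-5p, 0.0431 for miR-3073a-5p and miR-3073b-3p and 0.11 for miR-5615-5p and miR-5615-3p. The SD of the members themselves ran from 0.109 to 0.53. The hairpin of miR-3073a lies on chr12:112109238-112109322 (plus strand) in Aspg, an asparaginase gene, that of miR-3065 lies on chr11:120014767-120014853 opposite Mir338 and Aatk, a kinase gene, and those of miR-5615 lie on chromosome 10. Counting is not stated to use strand, and without strand the reads of both entries of a pair cannot be told apart. The counts below hold both entries of a pair, which may be 1 measurement.

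**Figure D3:**
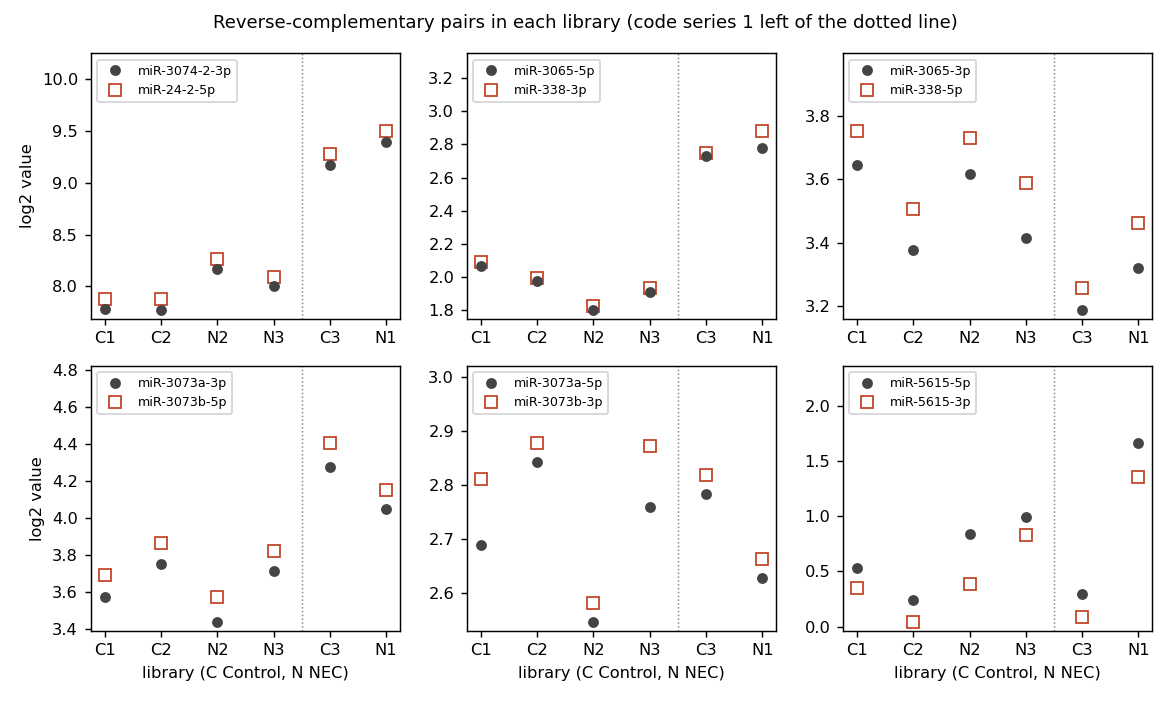
Log2 values (y axis) of the 6 pairs of entries on opposite strands in the 6 libraries (x axis, C for Control and N for NEC, with code series 1 left of the dotted line), filled circles for one entry and open squares for its partner. The entries of a pair follow each other from library to library, with differences that vary by an SD of 0.0074 to 0.11.

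The other products of miR-3074 were not in these pairs. Their hairpins lie opposite those of miR-24 too. No entries named miR-24-3p or miR-24-1-5p were listed to set beside them, and whether reads of miR-24 enter their values was not tested. The most abundant was miR-3074-5p, which either hairpin can give, with 10.27, 10.23 and 10.81 in Control and 10.65, 10.30 and 10.38 in NEC. The arm particular to the chromosome 13 hairpin by name, miR-3074-1-3p, had 3.95, 4.11 and 5.50 in Control and 5.74, 3.05 and 3.01 in NEC. Both libraries of code series 2 lay above all 4 of code series 1.

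Intron ends marked the mirtron-like members. In 27 members the hairpin fills an intron, or the hairpin or its mature RNA ends within 5 bases of the 3′ end of one, and 19 of them are 3p arms. In 12 of the 27 the mature RNA ends exactly at the last base of the intron. All 12 end in AG, the bases of the 3′ splice site, as that position implies. Over all members with a sequence, 15 of 82 (18.3%) ended in AG, these 12 among them, against 6.53% of the other miRNAs. The means of the 12 ran from 0.69 to 4.98 with a median of 2.05, and 5 were tested.

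The highest of these was miR-7043-3p, at the end of an intron of Rassf4, a gene of the Ras association domain family, on chr6:116645978-116646047 (minus strand). Its values were 4.53, 4.62 and 5.12 in Control and 4.99, 5.57 and 5.05 in NEC. The entry miR-7091-3p, from a hairpin that is an intron of 79 nt in Dnase1l1 on the X chromosome, was at 4.62, 4.53 and 4.71 in Control and 4.59, 5.04 and 4.96 in NEC. Its 5p arm, which starts at the first intron base, was lower by 3.09 to 3.79 in every library. The groups overlapped for both entries.

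Few members shared a seed with another listed miRNA. The seed CUGGCUG was common to miR-3085-3p and miR-3064-5p, which is cut from an intron of Ddx5, the gene of an RNA helicase. The scarce miR-5129-3p, with values of 2.25 to 2.63, had the seed AUGUGCC of miR-455-5p, which lay at 10.99 to 12.77. The tRNA-overlapping miR-1983 (5.11 to 5.79) had the seed UCACCUG of miR-412-3p (2.19 to 3.31), and miR-3073a-5p and miR-3073b-5p shared UGGUCAC. The scarce miR-3962 shares 17 bases with let-7g-5p, with a difference of miR-3962 minus let-7g-5p between -13.25 and -12.76. Stray reads of let-7g-5p that hold only the shared stretch cannot be told apart from miR-3962.

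NEC was then compared with Control. No member passed the test, and the member with the smallest p was miR-5099, higher in NEC. In limma with Benjamini-Hochberg adjustment over the 386 tested miRNAs, 0 of 33 members had an adjusted p under 0.05 (0% of all tested), with a smallest adjusted p of 0.998. At an unadjusted p under 0.05 there was 1 of 33 members (3.03%), against 11 of 386 (2.85%) over all tested miRNAs. Of the members, 18 were higher and 15 lower in NEC, with a median log2 difference of 0.01, as over all 386 (0.01), and a range of -0.59 to 0.94. The members were therefore shared between the directions about as the whole table was.

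For miR-5099, NEC averaged 10.26 ± 0.14 and Control 9.32 ± 0.32 (SD, n = 3 each). The log2 difference was 0.94 with a standard error of 0.26 (95% interval 0.33 to 1.55, limma unadjusted p = 0.00798, adjusted p = 0.998). It was higher in 3 of 3 NEC libraries than in any Control library. Within code series 1 the difference was 1.18, with an adjusted p of 0.0437 in limma on those 4 libraries alone, which called 1 of 33 members and 2 of 386 miRNAs (0.518%). Without the minimum that adjusted p was 0.068. Within code series 2 the difference was 0.45, with 1 library a group. Since the study had picked miR-5099 on these libraries, its direction is not independent evidence. The study chose its DEmiRNAs by an uncorrected p-value and fold change, and states that none was significant after correction for multiple comparisons.

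The DEmiRNA miR-1843a-3p did not reach the minimum for testing, as every library was under 3.32. NEC averaged 1.49 ± 0.08 and Control 2.43 ± 0.81 (SD, n = 3 each), with a difference of -0.94. The groups overlapped, since Control replicate 3 (1.51) lay among the NEC libraries (1.42 to 1.58). The difference was -1.40 within code series 1 and -0.03 within code series 2. When the minimum was dropped, limma gave an unadjusted p of 0.04995 and an adjusted p of 0.997 over 604 miRNAs. On code series 1 alone limma gave an adjusted p of 0.0327. Its 5p arm, at 8.43 ± 0.33 in Control and 8.51 ± 0.18 in NEC, differed by 0.08.

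Only 1 other tested member had groups that did not overlap. This was miR-7226-3p, from the end of an intron of Ptprf, the gene of a receptor tyrosine phosphatase, on chr4:118210505-118210564 (minus strand). Its values were 3.73, 3.69 and 3.48 in Control and 3.90, 3.94 and 4.01 in NEC, a difference of 0.32 with a standard error of 0.22 (limma adjusted p = 0.998). It was higher in NEC within both code series, by 0.27 and 0.42. Among tested miRNAs, values did not overlap, with NEC higher, in 2 of 33 members (6.06%) and 19 of 386 in all (4.92%), and with NEC lower in 0 of 33 members and 19 of 386 in all (4.92%).

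The next members by p that were higher in NEC were miR-6539, miR-7043-3p and miR-1843b-3p. The values of miR-6539 were 4.44, 4.08 and 4.15 in Control and 4.31, 4.96 and 5.09 in NEC, a log2 difference of 0.56 with a standard error of 0.29. The difference was 0.45 (standard error 0.29) for miR-7043-3p and 0.50 (standard error 0.33) for miR-1843b-3p. Code series 2 alone gave 0.16 for miR-6539, -0.13 for miR-7043-3p and -0.0002 for miR-1843b-3p, so that the NEC values were higher mainly in code series 1. The limma adjusted p of these members was 0.998.

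Of the members lower in NEC, none came below an unadjusted p of 0.05. The 5 with the smallest p were miR-3085-3p, miR-1839-3p, miR-1968-5p, miR-1839-5p and miR-3074-1-3p. The values of miR-3085-3p, which lies on chromosome 19 outside annotated host genes, were 4.32, 3.90 and 3.43 in Control and 3.39, 3.45 and 3.71 in NEC, a difference of -0.36 with a standard error of 0.29. The difference was -0.44 (standard error 0.43) for miR-1839-3p, -0.29 (standard error 0.37) for miR-1968-5p and -0.18 (standard error 0.24) for miR-1839-5p. For miR-3074-1-3p it was -0.59 (standard error 0.79), with -1.005 within code series 1 and 0.24 within code series 2. The groups of each of these 5 overlapped.

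**Figure D4:**
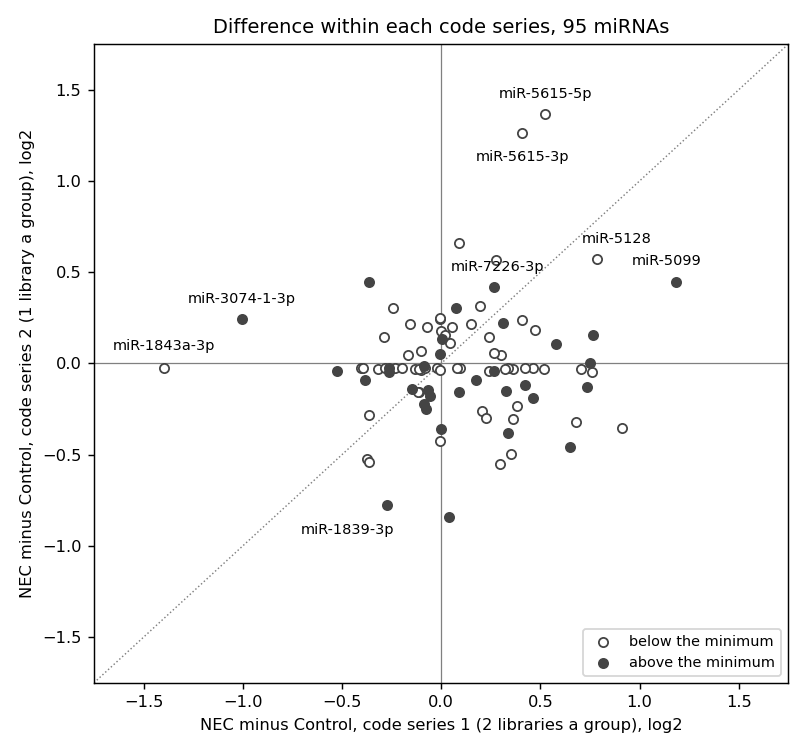
Log2 difference NEC minus Control of the 95 late-numbered miRNAs within code series 1 (x axis, means of 2 libraries a group) and within code series 2 (y axis, 1 library a group), with filled points for members above the minimum and a dotted line where both differences are equal. The differences of miR-5099 are 1.18 and 0.45, and many scarce members lie close to 0 on the y axis.

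With the code series as a covariate, more members came under the unadjusted threshold, in the same share as the rest of the table. At an unadjusted p under 0.05 limma then gave 6 of 33 members (18.2%) and 70 of 386 miRNAs (18.1%), and at an adjusted p under 0.05 it gave 0 of 33 members (0% of all tested), with 0.149 as the smallest adjusted p of a member. The 6 were miR-5099, miR-6539, miR-7015-3p and miR-7226-3p, higher in NEC, and miR-1839-3p and miR-3074-1-3p, lower. In this fit the 95% interval of the difference was 0.51 to 1.37 for miR-5099. Within both code series, 19 of 33 tested members had the same direction, against 245 of 386 tested miRNAs. The difference between the effects of both series was also tested as an interaction, and 0 of 33 members had an adjusted p under 0.05 in limma (smallest adjusted p 0.394).

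By genomic context the 4 tested members at the 3′ end of an intron were all higher in NEC, with a median difference of 0.37, and none of them had an unadjusted p under 0.05 in the fit without covariate, though miR-7015-3p and miR-7226-3p did once code series was a covariate. They were miR-7043-3p, miR-7015-3p, miR-7226-3p and miR-3082-3p. Within code series 2 the difference was -0.13 for miR-7043-3p, 0.11 for miR-7015-3p, 0.42 for miR-7226-3p and -0.15 for miR-3082-3p, so that the direction was not the same in both series for 2 of the 4. Those whose hairpin fills an intron (4 tested) were 2 higher and 2 lower, with a median of -0.0002. The 6 tested deeper inside an intron were 3 higher and 3 lower, with a median of 0.03. In the whole tested set, 200 of 386 miRNAs were higher in NEC. Of the 9 tested members that overlap another small RNA gene, 4 were higher and 5 lower, with a median of -0.06. Of the 6 tested members opposite another miRNA hairpin, 3 were higher and 3 lower, with a median of -0.06.

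The untested members were scarce, and several had groups that did not overlap. Over all 95 members, values did not overlap with NEC higher in 7 (7.37%), against 4.97% over all 604 miRNAs, and with NEC lower in 1 (1.05%), against 4.14%. The 6 untested ones were chosen after their values were seen. The values of miR-5615-5p were 0.53, 0.24 and 0.29 in Control and 1.66, 0.84 and 0.99 in NEC, and its reverse complement miR-5615-3p, the member with the lowest mean (0.51), moved with it. The values of miR-5128, in an intron of Strbp, were 0.73, 0.76 and 0.51 in Control and 1.08, 1.57 and 1.49 in NEC. The difference was 0.35 for miR-8120, 0.23 for miR-3064-5p and -0.34 for miR-12191-3p. Such values are close to the lowest of the table, and counts that could bound them are not given. In 24 of the 62 untested members, NEC replicate 1 minus Control replicate 3 lay between -0.05 and -0.01, miR-1843a-3p among them, against 5 of the 33 tested ones, and in 47 of the 156 other untested miRNAs (30.1%) and 25 of the 353 other tested ones (7.08%), a window chosen after the values were seen.

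The threshold itself left members just outside it. The tested members next to it were miR-3065-3p, with 3.19 to 3.65, and miR-3102-3p, with 2.52 to 3.71. The untested ones next to it were miR-6979-3p, with 2.31 to 3.85, and miR-1936, with 2.83 to 3.84. No tested member reached the minimum in only the 3 libraries of one group. The lowest means besides miR-5615-3p were those of miR-6960-5p (0.66), miR-3569-5p (0.67) and miR-6964-3p (0.69).

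The larger difference among libraries lay between the code series. In limma with the condition as a covariate, code series 2 was higher than code series 1 in 8 of 33 members (24.2%) and lower in 9 (27.3%) at an adjusted p under 0.05, against 25.4% higher and 32.1% lower of the 386 tested. The tested members had a median difference of -0.18, beside -0.19 for the whole tested set. After each library was shifted by its median deviation, 9 members were higher and 6 lower (29.8% and 24.9% of the 386), and after a shift to a common 75th percentile 5 were higher and 13 lower (21.8% and 39.6%). Code series 2 holds 2 libraries, 1 of each group. Epithelial markers (8 of 8 measured) summed to 18.3 to 18.7 in code series 1 and 19.0 to 19.2 in code series 2, and markers of striated muscle (3 of 3) to 10.5 to 11.1 and 11.5 to 12.0, so that the series did not overlap in either list. Their part in the difference was not tested.

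Of the tested members, miR-3074-1-3p had the largest fitted difference in either direction, 2.09 higher in code series 2 with a standard error of 0.27 (adjusted p = 0.000966, limma). The chromosome 8 arm miR-3074-2-3p was higher by 1.35 with a standard error of 0.14 (adjusted p = 0.000345), and miR-3074-5p by 0.44 with a standard error of 0.15 (adjusted p = 0.0348). Both 3p arms were at their highest in the same libraries, Control replicate 3 and NEC replicate 1. The pair miR-3073b-5p and miR-3073a-3p was higher by 0.54 in each entry and was counted as 2 entries. The opposite-strand entries made up 5 of the 8 members higher in code series 2.

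The remaining 3 were miR-3068-5p, miR-3081-3p and miR-1843a-5p. The hairpin of miR-3068 is typed as a snoRNA and lies in an intron of Alkbh1, a demethylase gene, on chr12:87437679-87437757 (minus strand). Values of miR-3068-5p were 4.99, 5.48 and 6.19 in Control and 6.14, 4.92 and 5.02 in NEC, a fitted difference of 1.06 between the series with a standard error of 0.18. Its 3p arm, at 5.10 to 5.44, differed by -0.08 with a standard error of 0.16, so that the arm difference 5p minus 3p was 0.92 to 1.02 in code series 2 and -0.41 to 0.23 in code series 1.

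Lower in code series 2 were, by p, miR-3095-3p, miR-1839-3p, miR-3102-3p and miR-3535. The first lies in an intron of Lpar1, a lysophosphatidic acid receptor gene, and had 4.84, 4.28 and 3.27 in Control and 3.13, 4.64 and 4.35 in NEC, a fitted difference of -1.33 with a standard error of 0.20 (adjusted p = 0.0015, limma). The fitted difference was -1.03 (standard error 0.17) for miR-1839-3p, -0.88 (standard error 0.17) for miR-3102-3p from an intron of Arhgef17, and -1.09 (standard error 0.23) for miR-3535. The other 5 were miR-1968-5p, miR-1943-5p, miR-7688-5p, miR-7015-3p and miR-1983. For miR-1839 and miR-3068 the arms of one hairpin thus differed in how far apart the series lay, with -0.10 (standard error 0.18) for miR-1839-5p and -1.03 for miR-1839-3p, a difference between arms that was not tested.

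**Figure D5:**
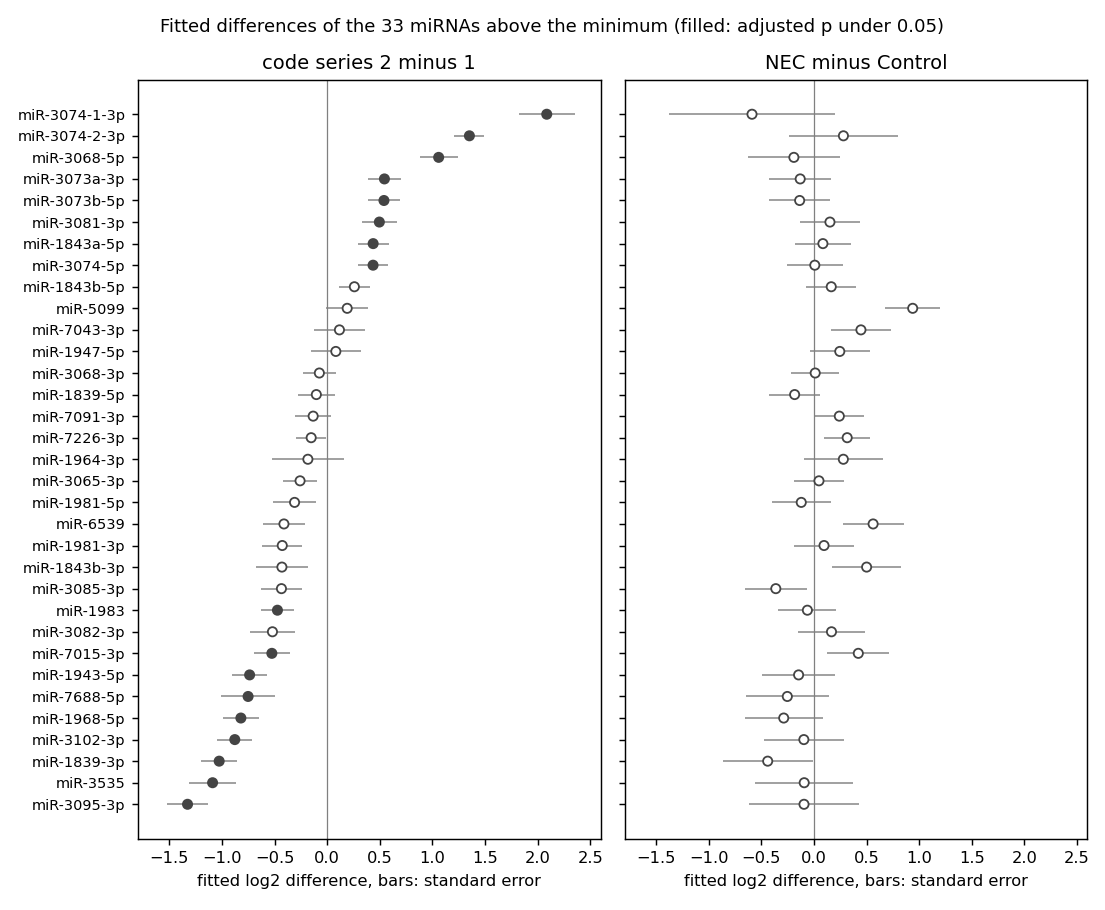
Fitted log2 differences (x axes, points with bars of 1 standard error) of the 33 tested late-numbered miRNAs (y axis, ordered by the left panel), code series 2 minus 1 on the left and NEC minus Control on the right, filled where the limma adjusted p was under 0.05. On the left 17 points are filled, from -1.33 for miR-3095-3p to 2.09 for miR-3074-1-3p, and on the right none is, with the highest value of 0.94 for miR-5099.

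Replicates of the members differed by amounts like those of other miRNAs. The median SD within groups was 0.33 for the 33 tested members, 0.41 for the 353 other tested miRNAs, 0.28 for the 62 untested members and 0.31 for the 156 other untested miRNAs.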

How the data were processed

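Small RNA libraries from mouse intestine were read as 50 nt single-end reads. The authors deposited a table of normalized log2 values, 1 column for each of the 6 libraries. The submitters' processing notes name the build mm10. The aligner, the counting tool and the log2 transformation were not given in the sources used here.

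From these values, miRNAs of at least 3.32 in at least 3 libraries (386 of 604) entered a two-sided limma fit without covariate (limma version 3.58.1 under R version 4.3.3), with Benjamini-Hochberg adjustment over all 386. The code series were compared in limma with the condition as a covariate. In 20 simulations of the 386 miRNAs, log2 differences of 1.5 between NEC and Control were recovered in 46.9% of cases without covariate and 90.4% when code series was a covariate, those of 0.75 in 1.07% and 67.1%, with 0.05 and 1.65 false calls on average. Shares were compared with an exact permutation test. Loci and host genes come from GENCODE M21 and RefSeq. Named were the members the study lists as DEmiRNAs, the 10 largest means, the 5 smallest p in each direction (4 between code series), their other arms, copies and opposite-strand partners, shared seeds, the 4 lowest means and the members next to the minimum. The members, lists and tests were chosen with earlier results of these data known.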

Additional observations from a re-analysis of the deposited data

How the results depend on the processing

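The count of members under an unadjusted p of 0.05 for NEC against Control, 1 in limma, was 5 without a minimum (of 95, against 3.48% of all 604), 6 when code series was a covariate (18.1% of all 386) and 7 in code series 1 alone (17.6%), and 1 to 5 when a library was left out, the 5 being without NEC replicate 1 (8.55%). The count at an adjusted p under 0.05 was 1 in code series 1 alone, where miR-5099 had 1.18, and 0 under every other setting run but one chosen after seeing the data. That was code series 1 alone without a minimum, where 13 of 95 members had an unadjusted p under 0.05 (14.9% of all 604) and 1 an adjusted p under 0.05, miR-1843a-3p (limma adjusted p = 0.0327), while miR-5099 was at 0.068. The counts between code series, 8 higher and 9 lower, were 11 and 18 without a minimum (21.7% and 24.2% of all 604), 4 and 1 with a minimum of 5.64 (fewer members tested, 25.5% and 33.3% of all 267) and 5 and 13 (21.8% and 39.6% of all 386) after the shift to a common 75th percentile. When a library was left out they ran from 3 to 6 higher and from 5 to 10 lower (15% to 25.1% and 17.6% to 32.9% of all 386). With the replicate number as a block the counts were 4 higher and 9 lower (20.2% and 32.6% of all 386), 1 member had an unadjusted p under 0.05 for NEC against Control and the median difference was 0.01. Replicate numbers do not pair the libraries: the correlation of deviations between same-numbered libraries was -0.689, 0.734 and -0.778 over 386 miRNAs. The share of members differed by -0.0021 percentage points without NEC replicate 2 and by 0.0312 to 0.0831 when another library was left out. Some NEC minus Control differences changed sign when a library was left out, with ranges of -0.10 to 0.19 for miR-3074-5p, -0.59 to 0.22 for miR-3535, -0.0248 to 0.27 for miR-1843a-5p, -0.35 to 0.0425 for miR-1981-5p, -0.0464 to 0.36 for miR-1981-3p, -0.16 to 0.75 for miR-3074-2-3p and -0.0516 to 0.34 for miR-3081-3p. Between code series, miR-3073b-5p missed the adjusted threshold without Control replicate 3, without NEC replicate 1 and with the block, and miR-3535 without Control replicate 3. The causes were not tested. The absence of counts limits what can be said of the 62 untested members.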
